A study of Xenopus tropicalis with 54 samples.

Results

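Isolated Bcat peaks are the bound regions that stand alone on a chromosome of the *Xenopus tropicalis* genome, with no other listed Bcat peak nearby. They were taken from the 1 peak list of the series by the measured positions themselves. The members were chosen by their measured width and spacing. A peak was called isolated when it lay on a chromosome, was under 700 bp wide and had no other peak of the list within 50 kb, measured from edge to edge. Of the 11711 peaks listed, 10752 lay on the 10 chromosomes and 959 on unplaced scaffolds. The rule was met by 2457 peaks, which is 22.9% of the chromosomal peaks and 21.0% of the whole list. The other 8295 chromosomal peaks are called the remaining peaks. A further 85 chromosomal peaks also lay more than 50 kb from any other but were at least 700 bp wide (median 782 bp), and they count among the remaining peaks. The values of both measures are therefore given as a description with no test.

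The series holds 2 ChIP-seq samples for Sox17 from whole gastrulae at stage NF10.5. It also holds 52 RNA-seq samples, from NF7 to NF12, of embryos injected with a morpholino against Sox17 or Bcat and of their controls. The sample titles call these controls uninjected, whereas the paper describes a control morpholino. No value of these samples was computed here, but some gene names and the windows described last come from the study's tables, which were drawn up from them. Although the list carries the name of Sox17, its coordinates were those of Bcat. All 1999 rows at hand of the paper's Bcat peak table were in it, at the same row, and 0 of the 1999 rows at hand of its Sox17 table shared both a start and an end with it. The Bcat reads came from 1 published dataset of NF10.5 gastrulae with no replicate, and the list gives no height, score or p-value. A peak is therefore a position here, its strength and sequencing depth are unknown, and no spread between samples can be set beside it. The 95% Wilson intervals given below cover counting error only, and neighbouring peaks or peaks of the same gene are not independent.

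β-catenin (Bcat) is the transcriptional effector of canonical Wnt signalling. Without a Wnt signal a destruction complex that contains Axin, APC and casein kinase phosphorylates it and marks it for degradation. With a signal it accumulates, enters the nucleus and acts at cis-regulatory modules (CRMs) through DNA-binding partners, mainly Tcf/Lef factors. In the *Xenopus* gastrula, maternal Wnt signalling on the dorsal side sets up the organizer, and zygotic Wnt8 acts on the ventral and lateral side. Genes with strong developmental control are often served by several CRMs. The list shows only Bcat positions, so how many CRMs serve a gene with a lone Bcat peak is unknown. No sequence of the isolated peaks is printed, because genome sequence of version 9.0, to which the coordinates refer, was not used.

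The isolated peaks were far from other listed Bcat peaks, and most lay well beyond the 50 kb limit. Bcat binding that the list does not hold was not counted in these distances. Such binding exists in the study's own data, since 70 of the co-bound windows described last shared no base with a listed peak. The nearest other peak was at a median of 118.5 kb, with quartiles of 74.7 and 193.8 kb, against a median of 4.66 kb for the remaining peaks. A distance over 100 kb was found for 1441 isolated peaks (58.6%), over 200 kb for 575 (23.4%), over 500 kb for 51 and over 1000 kb for 6. For the 2446 isolated peaks with a peak on both sides, the stretch that held no other peak had a median length of 455.5 kb. The first or last peak of a chromosome was isolated in 11 cases, and there the distance was known on 1 side only.

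**Figure D1:**
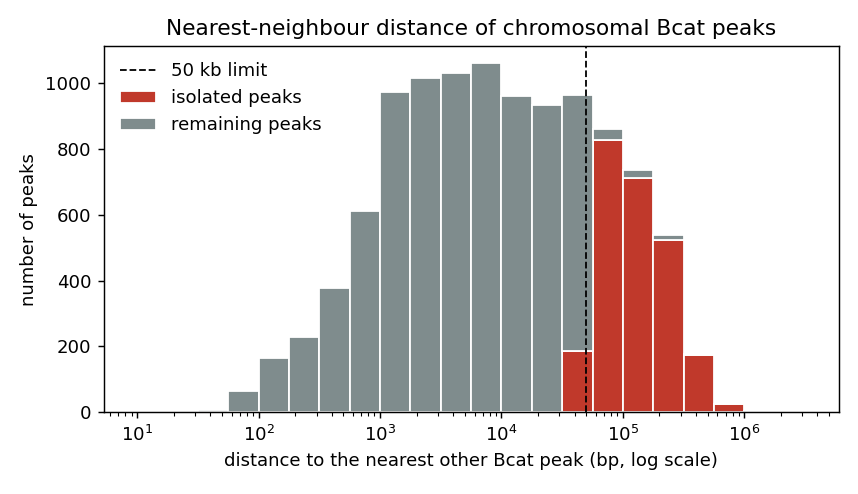
Number of chromosomal Bcat peaks (vertical axis) by distance to the nearest other peak in bp on a log scale (horizontal axis), with isolated peaks in red, remaining peaks in grey stacked on them, and the 50 kb limit as a dashed line. Counts stay nearly level from 10 kb to the bin that holds the 50 kb limit, pass it without a gap and decline to its right. The grey tops to the right of that bin are among the 85 lone peaks of at least 700 bp.

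The distances formed a continuous range across the limit. Just inside it was the *gata3* peak at chr3:73894692-73895069, 50059 bp from its neighbour, where Gata3 is a zinc-finger transcription factor. A pair of peaks 50068 bp apart, at chr2:42850744-42851067 and chr2:42901136-42901519, was also just inside. Just outside were a pair 49985 bp apart, at chr2:146613361-146613621 and chr2:146663607-146664170, and a peak at chr1:191709031-191709510 with a neighbour at 49974 bp. Among peaks with a looked-up gene, *csrnp1* (50573 bp) and *ccdc3-like.2* (50664 bp) were just inside, while *baalc* and *atp6v1c1*, neighbours 49722 bp apart, were just outside. At the width limit, the widest isolated peaks were 696 bp at chr8:89507308-89508003, 696 bp at chr9:68602171-68602866 and 694 bp at chr5:143497553-143498246. The narrowest lone peak left out was that of *c1galt1c1*, at 700 bp, followed by peaks of 704 and 705 bp.

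The peak at chr1:1261238-1261590 was the first listed on chromosome 1, and its neighbour at chr1:3558624-3559005 lay 2297 kb away, which was the greatest nearest distance of any isolated peak. The last peak of chromosome 5, at chr5:146002708-146003256, was 1420 kb from its neighbour, and that at chr2:4107644-4107995 was 1370 kb from its own. No gene was looked up for these 4 peaks.

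Isolated peaks were narrower than the remaining ones. Their width had a median of 350 bp, a mean of 368.8 bp and an SD across peaks of 96.6 bp, and ranged from 201 to 696 bp. The remaining peaks had a median of 401 bp and reached 5696 bp. Because the rule removes wide peaks, the fair comparison is with the 7561 remaining peaks under 700 bp, whose median was 384 bp and whose mean was 405.1 bp with an SD of 110.4 bp. The medians thus differed by -34 bp, isolated minus remaining, and both distributions overlapped over nearly their whole range. Under 300 bp wide were 662 isolated peaks (26.9%), against 1303 (17.2%) of the remaining peaks under 700 bp. At least 500 bp wide were 259 isolated peaks (10.5%), against 1564 (20.7%) of those remaining peaks. The sign of the difference held at neighbour limits of 25 and 100 kb, with medians of 351 and 390 bp at 25 kb and of 351 and 379 bp at 100 kb. On each of the 10 chromosomes the isolated peaks had the lower median, from 336 bp on chromosome 4 to 360.5 bp on chromosome 6, against 373 to 396 bp for the remaining peaks under 700 bp.

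Width followed distance up to about the limit of the rule and not beyond it. Among peaks under 700 bp, the median width was 405 bp with a neighbour within 1 kb, 401 bp at 1 to 5 kb, 379 bp at 5 to 10 kb, 363 bp at 10 to 25 kb and 356.5 bp at 25 to 50 kb. Within the isolated peaks it was 347 bp at 50 to 100 kb, 352.5 bp at 100 to 200 kb and 350 bp over 200 kb. Among the isolated peaks the median thus showed no further decline with distance. The share of peaks of at least 700 bp, counted over all chromosomal peaks, was 11.5% with a neighbour within 1 kb and 2.87% with none within 200 kb. Peak heights are not in the list, so their part in these widths was not tested.

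**Figure D2:**
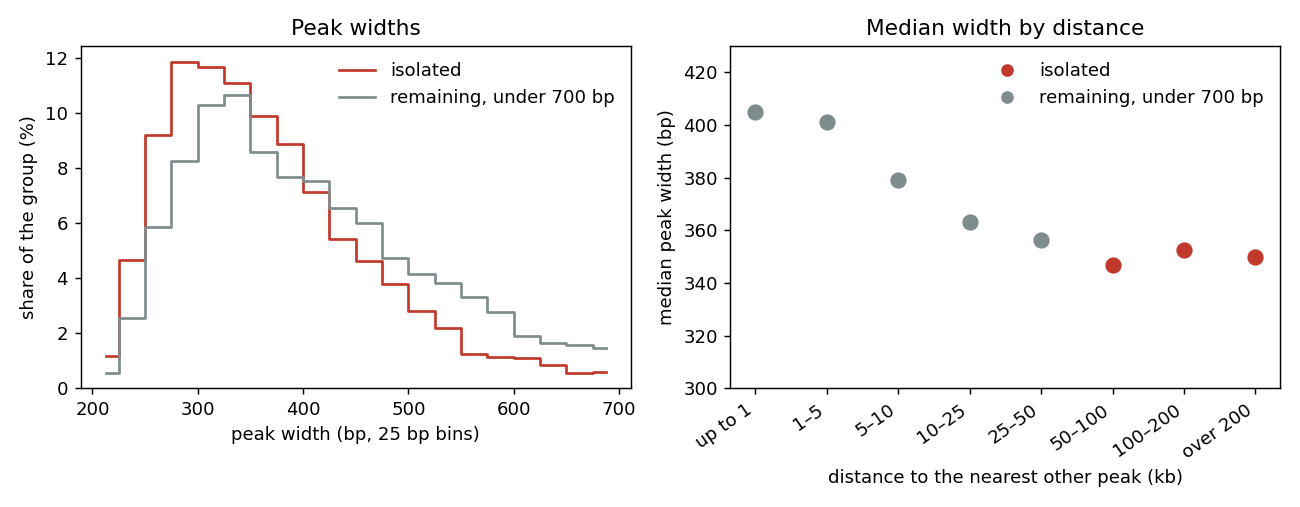
Left: share of each group in percent (vertical axis) by peak width in bins of 25 bp (horizontal axis) for the isolated peaks (red) and the remaining peaks under 700 bp (grey). Right: median width in bp (vertical axis, starting at 300 bp) by distance to the nearest other peak in kb for peaks under 700 bp. The medians decline from 405 to 356.5 bp across the grey bins and stay between 347 and 352.5 bp in the 3 red ones.

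Isolated peaks were spread over all 10 chromosomes in nearly equal shares. The isolated share ran from 24.7% of 1189 peaks on chromosome 5 (interval 22.4 to 27.3%) to 19.4% of 1098 peaks on chromosome 8 (17.2 to 21.8%). Chromosome 8 was the 1 chromosome whose interval did not include the 22.9% of all chromosomal peaks. It carried 8.67% of the isolated and 10.7% of the remaining peaks. The other 8 chromosomes lay between 21.4% (chromosome 7) and 24.6% (chromosome 9). Per Mb between the first and last peak, isolated peaks numbered from 1.77 on chromosome 9 to 2.40 on chromosome 10. These are the chromosomes with the fewest and the most peaks per Mb in all, 7.2 and 10.8. The order of the chromosomes changed with the limit: at 25 kb the highest and lowest shares were those of chromosomes 10 (35.1%) and 7 (29.5%), and at 100 kb those of chromosomes 6 (14.8%) and 10 (10.6%).

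**Figure D3:**
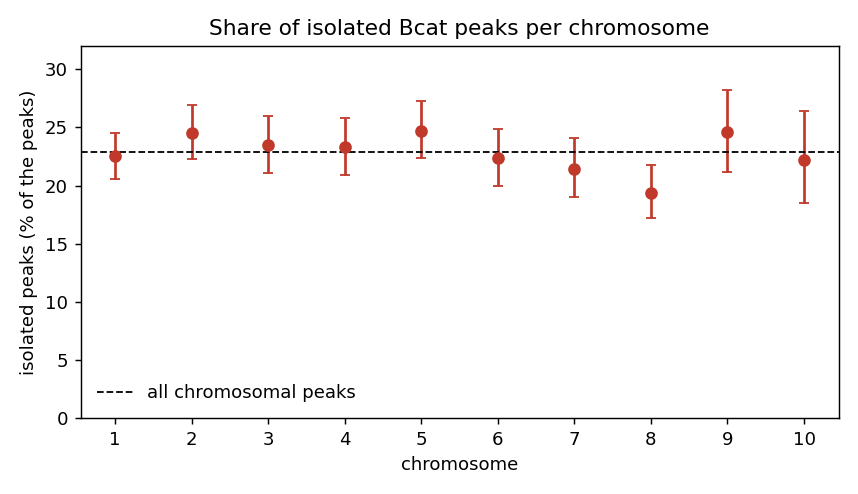
Isolated peaks as a percentage of the peaks of each chromosome (vertical axis) for chromosomes 1 to 10 (horizontal axis). Points are shares, bars are 95% Wilson intervals and the dashed line is the 22.9% of all chromosomal peaks, which lies inside every bar except that of chromosome 8 at 19.4%.

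Along the chromosomes the share varied somewhat more. When each chromosome was divided into 10 equal parts from its first to its last peak, the isolated share was lowest in the first part, at 18.0% (194 of 1080 peaks, interval 15.8 to 20.4%), and highest in the fifth, at 27.0% (268 of 992, interval 24.3 to 29.9%). The last part had 22.5%.

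Isolated peaks often followed one another. Both neighbours were isolated too for 769 of the 2457 peaks (31.3%), 1 neighbour for 1194, and neither for 494 (20.1%). The nearest neighbour was itself isolated for 1344 (54.7%). The rule favours this in part, because the neighbour of an isolated peak already has its free stretch on that side. How much of these shares the rule alone gives was not tested. Taken in order along the chromosome, the isolated peaks formed 1091 uninterrupted runs, of which 122 held at least 5 peaks and 746 peaks together. The longest run had 12 peaks over 2629 kb, from 58924153 to 61553132 on chromosome 5. Its looked-up members belonged to *ero1b*, which encodes an oxidase of protein folding in the endoplasmic reticulum, and *acta1*, skeletal muscle actin. A run of 11 peaks over 3916 kb on chromosome 3, from 1558094 to 5474087, held both peaks of *ccnd2* and that of *ergic2*.

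To see which genes the isolated peaks belong to, each peak was given the gene with the nearest transcription start site, as the authors assigned it. That assignment was at hand for genes from *a1cf* to *esrp1*, with a few names from outside that alphabetical range, such as *itprid1* and *tle5*. It covers 1876 chromosomal peaks of 971 genes. Of these peaks, 426 were isolated (22.7%), close to the 22.9% of all chromosomal peaks, and their median width (349 bp) and nearest distance (119 kb) were also near those of all isolated peaks. By name, 375 of the 393 genes with an isolated peak (95.4%) were found in the RefSeq annotation of UCB_Xtro_10.0, and 396 of the 406 isolated peaks of those genes lay on the same numbered chromosome there.

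Most isolated peaks were the single listed peak of their gene. This held for 343 of 426 (80.5%, interval 76.5 to 84.0%), against 231 of 1450 remaining peaks (15.9%, interval 14.1 to 17.9%). The spacing rule favours this result, since peaks of the same gene tend to lie near each other. Seen from the genes, an isolated peak was found at 393 of 971 (40.5%), and among the 574 genes with a single peak at 343 (59.8%). For 370 of the 393 genes every listed peak was isolated, and 23 genes had isolated and other peaks. The nearest neighbour belonged to the same gene for 69 isolated peaks (16.2%), against 1175 remaining peaks (81.0%). Peaks per gene had a median of 1 and a maximum of 8 over the isolated peaks, against a median of 3 and a maximum of 18 over the remaining ones.

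At least 2 isolated peaks were found at 30 genes, and 27 of these had no other listed peak. Genes were counted by name, and at *asic2* and *espn* the 2 peaks were assigned to different gene models of that name. The gene with the most was *acvr2a*, which encodes a type II receptor for activin and related ligands. All 4 of its peaks were isolated. They lay at chr9:72116707-72117176, chr9:72204651-72204890, chr9:72320731-72321057 and chr9:72408899-72409198, were 470, 240, 327 and 300 bp wide, and were separated by 87.5, 116 and 87.8 kb. The 4 peaks together spanned 292.5 kb. Next came *cdh5*, VE-cadherin of endothelial cells, with 3 of 3 peaks isolated over 232.4 kb on chromosome 4, the first at chr4:60140726-60141060. The peak before these on the chromosome, 318 kb away, belonged to *cdh11*, a cadherin of mesenchymal cells with 7 peaks, and the peak after them lay at 148 kb. Of these, 5 lay within 57.5 kb of each other, and the other 2 stood 183 and 211 kb from their nearest neighbours, at chr4:59610707-59611014 and chr4:59822189-59822459.

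The other genes with several isolated peaks encode proteins of unlike function, among them some of neurons and the cell surface. *dscam*, a neuronal adhesion molecule, had peaks of 360 and 391 bp separated by 100 kb, and *cnr1*, a cannabinoid receptor, had peaks of 376 and 345 bp separated by 81.6 kb. *adgrb3*, an adhesion G-protein-coupled receptor, had peaks of 539 and 378 bp separated by 60.6 kb. *ccnd2*, encoding cyclin D2, had one peak of 638 bp at chr3:2749713-2750350 and another of 386 bp at chr3:2916429-2916814, 166 kb apart. *adamts18*, a secreted metalloprotease, and *cadm1*, a cell adhesion molecule, each had 2 isolated peaks among 7, the others of *adamts18* being 1.39 to 19.5 kb from a neighbour.

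**Figure D4:**
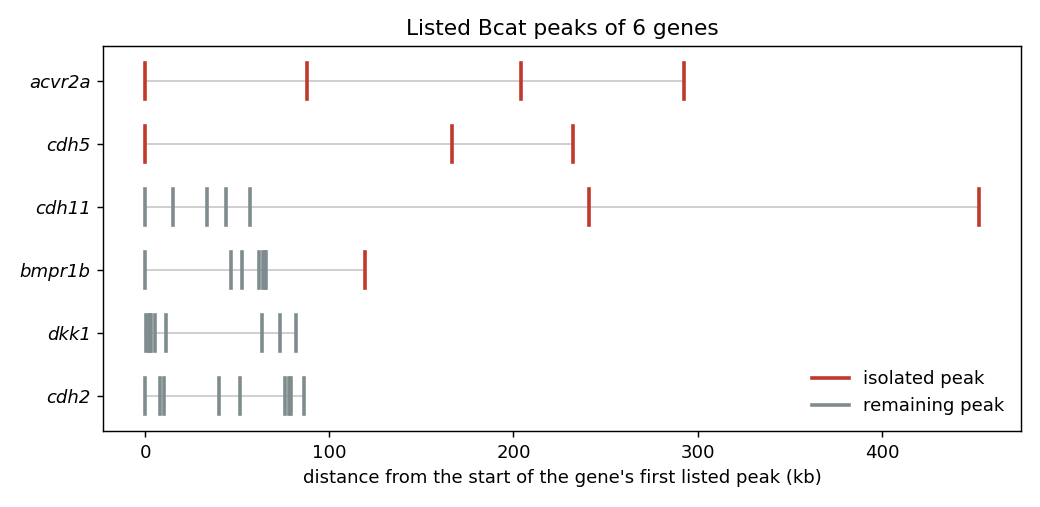
Listed Bcat peaks of 6 genes, drawn by distance in kb from the start of the gene's first listed peak (horizontal axis), with isolated peaks as red and remaining peaks as grey bars of fixed line width. The 4 peaks of *acvr2a* and the 3 of *cdh5* are all red and far apart, *cdh11* and *bmpr1b* have both kinds, and the 9 peaks each of *dkk1* and *cdh2* are all grey.

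The isolated peaks with the greatest distances belonged to genes of unlike function. Peaks named only by the second lookup described below, such as that of *pitx3* at 483 kb, are not ranked here. Among the other looked-up peaks, that of *cfap74*, a ciliary protein, was farthest from any other, at 701 kb (chr7:71431785-71432123, 339 bp). It was followed by *ankrd6* at 591 kb (chr5:83083474-83083736, 263 bp). Ankrd6, also called Diversin, is a Wnt pathway protein that links casein kinase to the Axin complex. *celf4*, an RNA-binding protein of neurons, came at 489 kb, *adgrb2*, an adhesion G-protein-coupled receptor, at 464 kb, and *aga*, a lysosomal enzyme, at 452 kb. The rest of the 12 farthest were *ercc5* and *itprid1* (430 kb each), *dazap1* (418 kb), *ano2* (416 kb), *cdc5l* (414 kb) and *adamts19* and *cdh12* (413 kb each). Each of the 12 except that of *aga* was the only listed peak of its gene, and their widths ran from 263 to 406 bp.

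The narrowest looked-up isolated peaks were those of *coq4*, a protein of coenzyme Q synthesis (214 bp), *anxa7*, an annexin (220 bp), and *cntnap1*, a contactin-associated protein (223 bp). The widest were those of *atp8a1*, a phospholipid flippase (694 bp), *camkv* (684 bp) and *ankle2* (668 bp). The nearest peak lay 60.1 to 66.4 kb from the 3 narrowest and 65.2 to 139 kb from the 3 widest, and all 6 were the single peak of their gene.

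Isolated peaks were then counted on 14 gene lists drawn from pathways of the gastrula and from general cell functions. The lists had 241 genes with a looked-up peak, and 88 of them had an isolated one, against 393 of 971 (40.5%) over all looked-up genes. Of their 623 peaks, 100 were isolated (16.1%), against the 22.7% of all looked-up peaks. Genes on the lists were taken partly from the names in the lookup table, and the counts below describe them with no test. The spacing rule may lower the isolated share of a list whose genes carry more peaks each, which was not tested. The peaks per gene are therefore given too, with 1.93 over all looked-up genes.

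**Figure D5:**
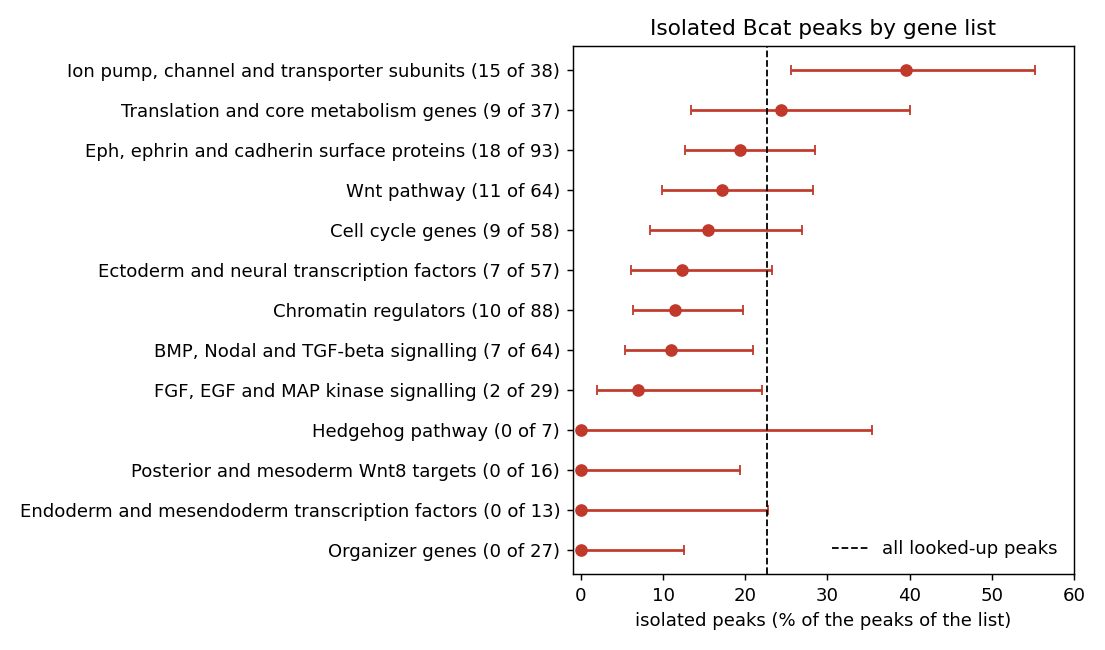
Isolated peaks as a percentage of the peaks of each gene list (horizontal axis), one row for each of 13 lists with its isolated and total peaks in brackets. Points are shares, bars are 95% Wilson intervals and the dashed line is the 22.7% of all looked-up peaks. The ion pump, channel and transporter list is highest at 39.5%, and the Organizer, endoderm, Wnt8 target and Hedgehog lists are at 0.

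Genes of Wnt signalling itself had isolated peaks at 10 of 25, close to the 40.5% of all looked-up genes, with 11 of 64 peaks isolated (17.2%, interval 9.88 to 28.2%) and 2.56 peaks per gene. Some of these genes encode proteins that act in or with the Bcat destruction complex. *axin1*, the scaffold of the complex, had a single peak of 488 bp at chr9:9337391-9337878, with the nearest other peak at 83.1 kb. *btrc*, the F-box protein that recognises phosphorylated Bcat, had a single peak of 312 bp at chr7:22282685-22282996 with 88.4 kb to the nearest. *csnk1a1*, casein kinase 1 alpha, which phosphorylates Bcat, had 2 peaks, one isolated (363 bp, chr3:31933789-31934151, 52.2 kb) and one not. *csnk1e*, casein kinase 1 epsilon, had a single peak of 261 bp at chr4:112047031-112047291. Each of these 4 lay within 100 kb of another listed peak.

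The other isolated Wnt peaks belonged to genes of unlike function. *amer2*, a membrane protein that binds APC, had a single peak 172 kb from any other, and *dixdc1*, a DIX-domain protein, a single peak at 88.6 kb. *apcdd1*, a membrane-bound Wnt inhibitor, had 1 isolated peak among 3. *dab2*, an endocytic adaptor, had 2 isolated peaks only 53.1 kb apart. *ctnnal1*, related to alpha-catenin, had a single peak at 399 kb. The 15 list genes with no isolated peak included *ctnnb1*, Bcat itself, whose 7 peaks had neighbours at 4.92 to 41.4 kb, and *dkk1*, a secreted Wnt inhibitor of the organizer, whose 9 peaks had neighbours at 0.245 to 9.03 kb. They also included *dvl1* and *dvl3*, the Dishevelled proteins, and *amer1*, whose 2 peaks lay 0.126 kb apart.

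Genes of BMP, Nodal and TGF-beta signalling had isolated peaks at 4 of 18, with 7 of 64 peaks isolated (10.9%, interval 5.40 to 20.9%) and 3.56 peaks per gene. Besides the 4 of *acvr2a*, *amhr2*, the receptor of anti-Müllerian hormone, had a single peak of 344 bp at chr2:144116348-144116691, and *bmpr1b*, a type I BMP receptor, had 1 isolated peak of 282 bp at chr1:66836366-66836647. That peak lay 53.2 kb from the nearest of the gene's other 7 peaks, which had neighbours at 0.294 to 46.1 kb. The 1 ligand was *bmp3*, with a single peak of 280 bp at chr1:76904150-76904429. The ligand genes *bmp4* (8 peaks, neighbours within 0.203 to 5.17 kb) and *bmp2* (3 peaks, 1.54 to 5.33 kb) had none, nor did the receptor genes *acvr1*, *acvr1b*, *acvr2b* and *bmpr1a*.

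None of the looked-up peaks of Organizer genes (0 of 27, at 6 genes), endoderm and mesendoderm transcription factors (0 of 13, at 2), posterior and mesodermal Wnt8 targets (0 of 16, at 3) or the Hedgehog pathway (0 of 7, at 2) was isolated. With so few peaks, the intervals reach up to 12.5%, 22.8%, 19.4% and 35.4%. These genes had 3.5 to 6.5 peaks each on average. *eomes*, a T-box factor of mesendoderm, had 9 peaks, *chrd.1*, the BMP inhibitor Chordin, had 5, *cdx4*, a caudal-type homeobox factor, had 4, and *cer1*, Cerberus, had 3, all within 29.5 kb of a neighbour.

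Transcription factors of ectoderm and nervous system had isolated peaks at 7 of 22 genes, with 7 of 57 peaks (12.3%, interval 6.08 to 23.2%) and 2.59 peaks per gene. *atoh1*, a proneural gene, had 1 isolated peak among 3, of 459 bp at chr1:67560120-67560578. *barhl2*, a homeobox gene, had 1 of 2, and *ebf3*, a helix-loop-helix factor, 1 of 8, the last one 316 kb from its nearest neighbour. *alx4*, *dmrta2* and *ebf2* had a single peak each, 119, 60.4 and 123 kb from any other. None of the peaks of *dlx1*, *dlx2*, *dlx3*, *dlx4*, *emx1*, *egr1* or *egr2* was isolated.

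The list of cell surface genes held the most isolated peaks, but also the most peaks in all. On this list of Eph, ephrin and cadherin surface proteins, 13 of 28 genes had an isolated peak, against 40.5% of all looked-up genes. The 13 include 2 adhesion molecules of other families, *cadm1* (2 of 7 peaks isolated) and *dscam* (2 of 2). Isolated were 18 of 93 peaks (19.4%, interval 12.6 to 28.5%), against 22.7% of all looked-up peaks, with 3.32 peaks per gene. Cadherins with an isolated peak were *cdh5*, *cdh6*, *cdh7*, *cdh8*, *cdh11*, *cdh12*, *cdh13*, *cdh17* and *cdh20*, and those without one were *cdh1*, *cdh2*, *cdh3*, *cdh18*, *cdh22* and *cdh24*. The single peaks of *cdh7* and *cdh20* stood 359 and 315 kb from any other, and that of *cdh13* 233 kb. The 4 peaks of *cdh1*, E-cadherin, had neighbours at 5.37 to 10.8 kb, and the 9 of *cdh2*, N-cadherin, had neighbours at 0.797 to 11.2 kb. The Eph receptors *epha7* and *epha10* had a single isolated peak each. *efnb2*, an ephrin ligand, had 18 peaks, the most of any looked-up gene, and none was isolated.

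Chromatin regulators had isolated peaks at 9 of 28 genes, with 10 of 88 peaks (11.4%, interval 6.29 to 19.7%) and 3.14 peaks per gene. Of these, *bmi1*, *cbx8* and *eed* had a single peak each, 114, 67.5 and 82.0 kb from any other. *arid1b*, a SWI/SNF subunit, had 2 isolated peaks separated by 130 kb. *bcor*, a corepressor, had 15 peaks and none isolated, and *arid1a*, *arid2*, *asxl3* and *auts2* had no isolated peak either.

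Cell cycle genes had isolated peaks at 8 of 24, with 9 of 58 peaks (15.5%, interval 8.38 to 26.9%) and 2.42 peaks per gene. Besides both peaks of *ccnd2* these were the single peaks of *cdk1*, the mitotic kinase (283 bp, chr7:8473333-8473615, 54.7 kb), *cenpe*, a kinetochore motor (150 kb), *anapc5* and *anapc10*, subunits of the anaphase-promoting complex (66.8 and 194 kb), *ccng1*, *dtl* and *cdkn1a*. *ccnd1*, encoding cyclin D1, had 8 peaks and none isolated. *cdkn1a*, the inhibitor p21, also stood on the FGF, EGF and MAP kinase list, where it and *dusp9*, a MAP kinase phosphatase, were the 2 of 11 genes with an isolated peak (2 of 29 peaks, 6.90%, interval 1.91 to 22.0%, 2.64 peaks per gene).

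The highest shares were those of genes with few peaks. Ion pump, channel and transporter subunits had isolated peaks at 14 of 24 genes, with 15 of 38 peaks (39.5%, interval 25.6 to 55.3%) and 1.58 peaks per gene. Its isolated peaks included those of the proton pump subunits *atp6v1h* (257 kb to the nearest peak), *atp6v0b* (60.5 kb) and *atp6v0c* (53.8 kb). The proton pump subunits *atp6v0d2*, *atp6v0e1* and *atp6v1c1* had none. Isolated peaks were also found at the calcium pumps *atp2b4* (348 kb) and *atp2b3* (67.1 kb), but not at *atp2a2*. Among calcium channel subunits *cacna1i* (375 kb) and *cacna2d2* (166 kb) had one, and *cacna2d1* had none. The acid-sensing channels *asic1* (216 kb) and *asic2* (2 peaks, 168 and 139 kb) had them too. The 24.3% of translation and core metabolism genes (9 of 37 peaks, interval 13.4 to 40.1%, at 9 of 25 genes, 1.48 peaks per gene) was close to that of all looked-up peaks. There, *eif3h* and *eif3d*, subunits of initiation factor eIF3, had a single peak each, 318 and 188 kb from any other. The eIF3 subunits *eif3e* and *eif3m* had no isolated peak. *cox6c*, a cytochrome oxidase subunit, had a single peak at 235 kb, while *cox5a* and *cox5b.1* had no isolated one.

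Most genes of later letters of the alphabet could be looked up only where their transcripts had changed in Bcat-MO embryos. The lists are therefore given by name and count without intervals. On the lists, few of these peaks were isolated. They were 1 of 60 on the Wnt list (*mcc*), 2 of 41 on the TGF-beta list (*gdf10*, *id2*) and 2 of 29 on the endoderm list (*osr1*, *sebox*). The neural list had 7 of 251, at 5 of 38 genes (*olig3*, *pax2*, *pitx1*, *pitx3*, *six3*). The Wnt8 targets had 1 of 67 (*msx2*) and the Hedgehog list 1 of 29 (*hhip*). The Eph, ephrin and cadherin list had 4 of 31, at the protocadherins *pcdh18*, *pcdh8.2* and *pcdh9*, and the FGF list 0 of 18. Genes with none included *lef1*, *foxa2*, *mix1*, *sox2*, *pax6* and *gli1*. The peak of *hhip*, which encodes a Hedgehog-binding inhibitor, was 385 bp wide at chr1:49468300-49468684 and 172 kb from any other. *pitx1*, a homeobox gene, had 3, at chr3:16723788-16724136, chr3:16844346-16844727 and chr3:16904344-16904771. Of the 12 Organizer genes looked up in this way, including *gsc*, *otx2*, *nog*, *frzb* and *lhx1*, none had an isolated peak among the 86 at hand. This second lookup was at hand only in part, so further peaks of its genes can be missing. Its lists held many peaks at few genes, such as 60 at 13 Wnt genes and 251 at 38 neural genes. The spacing rule may lower the isolated share there, which was not tested. Over all genes, this lookup named 1563 further chromosomal peaks, of which 166 (10.6%) were isolated, a lower share than the 22.7% of the first lookup. The lookups were not matched for peaks per gene.

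Isolated peaks were last compared with the windows of 150 bp that the study lists as bound by both Sox17 and Bcat and associated with genes that both regulate. At least 1 bp of such a window was found in 119 peaks of the Bcat list on chromosomes, which is 1.11% of the chromosomal peaks. Another 70 windows on chromosomes shared no base with a listed peak, so the shares cover only part of the windows. A window lay in 21 isolated peaks (0.855%, interval 0.560 to 1.30%), against 98 remaining peaks (1.18%, interval 0.970 to 1.44%) and 87 of the remaining peaks under 700 bp (1.15%, interval 0.934 to 1.42%). The difference between the groups was not tested. Isolated peaks made up 17.6% of the peaks with a window.

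The 21 isolated peaks with a window belonged to 19 genes. Those of transcription factors were at *osr1*, *foxq1*, *mafb* and *pitx1*, where 2 of the 3 isolated peaks had a window. That of *osr1*, a zinc-finger gene of the mesendoderm, was 321 bp wide (chr5:138464351-138464671), 62.1 kb from any other listed peak. An *osr1* enhancer that the paper lists as co-bound lies within that 62.1 kb, outside any listed peak. *foxq1*, a forkhead gene, had a peak of 238 bp (chr6:51611127-51611364, 90.3 kb). *mafb*, a basic leucine zipper gene, had one of 267 bp (chr10:32338622-32338888, 125 kb). Signalling genes among the 19 were *bmp3*, *socs3*, an inhibitor of cytokine signalling (261 bp, 292 kb from any other, the farthest of the 21), *rasd1*, *sla* and *mcf2l*. Membrane proteins were *kcne1*, a potassium channel subunit with 2 such peaks 53.2 kb apart, *gjb2*, a gap junction connexin, *nt5e*, an ectonucleotidase, and *pcdh9*. The others were at *eps8l1*, *fam228b*, *hao1*, *lgals9*, *LOC100485014* and *LOC101730541*. Their widths ran from 230 to 664 bp with a median of 401 bp, against 350 bp for the isolated peaks without a window. A wider peak can meet a window more easily, and the part of that in the difference was not tested.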

How the data were processed

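Reads were trimmed and aligned by the authors to version 9.0 of the *X. tropicalis* genome with Bowtie2 (2.3.4.7 in the submitters' processing notes). Duplicates and multi-mapped reads were discarded, MACS2 called the peaks with input DNA of NF10.5 as background, and IDR on pseudoreplicates filtered them. The deposited list gives the sequence name, start and end of each peak in bp and no other value, so peaks of unlike strength count equally. Coordinates are printed counting from 1. Distances to the next peak on either side were computed from edge to edge, and gene names were taken from the peak tables of the paper's supplement, which were at hand in part. Intervals are 95% Wilson intervals.

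The distance routine, tested on simulated data, found 400 of 400 planted isolated peaks among 2000 and no others. Python 3.11.15, pandas, scipy and matplotlib were used. The isolated peaks and the gene lists were chosen with earlier results of these data known. Named genes are the 12 farthest looked-up peaks, isolated peaks of list genes, those with a co-bound window, the 3 narrowest and 3 widest, genes with at least 2 isolated peaks, and peaks next to the limits. Genes with no isolated peak, and those in the longest runs, were named for contrast after their values were seen. Alternatives were limits of 25 and 100 kb, no or a 500 bp width limit, a list of peaks of at least 300 bp, merged peaks, centre distances, scaffolds included, means, and stricter window overlaps. Expression samples were not analysed here, and 1 gene list and 2 genes are not reported here.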

Additional observations from a re-analysis of the deposited data

How the results depend on the processing

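The 6 results were recomputed under 22 alternatives. Of these, 18 stayed within 1.5 times the reported count or difference, or within the interval of the reported share. Only the width difference could change sign, and it did not. For the chromosomes only the span from the lowest to the highest share was compared, and which chromosomes these were changed with the limit. With the neighbour limit at 100 kb, the number of isolated peaks was 1441 in place of 2457, the number of list genes with one was 50 in place of 88, and the share that were the single peak of their gene was 84.2% in place of 80.5%. With the limit at 25 kb that share was 71.1%, and the number of isolated peaks 3557. The other settings gave 2160 peaks (list of peaks of at least 300 bp) to 2798 (unplaced scaffolds included). The width difference ran from -28 bp (100 kb) to -39 bp (25 kb). No paired analysis was possible because the list carries no replicate, and for the same reason none could be left out. Depth is unknown, so its part in which peaks were listed was not tested.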

Other observations

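Of the 426 looked-up isolated peaks, 326 belonged to genes on no list and 100 to list genes. Over all 1876 looked-up chromosomal peaks, 623 belonged to list genes. The Notch ligand gene *dll1* had 6 peaks, of which 1 was isolated, and *csrnp1*, a nuclear protein gene, had 8, of which 1 was isolated. Among genes with exactly 2 listed peaks, both isolated, were *col9a2*, a cartilage collagen (61.1 kb apart), *cldn16*, a tight junction claudin (51.4 kb), *casz1*, a zinc-finger transcription factor (197 kb), *dach2*, a transcriptional cofactor (121 kb), and *diaph3*, a formin (271 kb). These values are given without explanation.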
